A study of Mus musculus with 40 samples.

Results

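The 7 genes *Lin28a*, *Lin28b*, *Igf2bp1*, *Igf2bp2*, *Igf2bp3*, *Hmga2* and *Arid3a* were followed across all libraries of a mouse RNA-sequencing study of the histone acetyltransferases KAT6A and KAT6B. They were taken by gene symbol from the 26411 genes counted, as known members of the fetal growth and blood programme, and because *Igf2bp1* had already been seen to be lower in *Kat6a* mutant fetal liver cells of these same data. For that reason the comparison of *Kat6a* single mutant with wild-type fetal liver cells is described without a test for all 7 genes, and among fetal liver genotypes *Igf2bp1* was tested only between the double mutant and the *Kat6b* single mutant, a contrast that was also set against embryos. All 7 genes passed the filter on low counts in both tissues, so none was lost to it.

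LIN28A and LIN28B are RNA-binding proteins of embryonic and fetal cells that block the maturation of let-7 microRNAs. Mature let-7 lowers messenger RNAs that carry matching sites in the 3′ untranslated region (UTR), among them those of the IGF2BP proteins, HMGA2 and the LIN28 proteins themselves. In blood, LIN28B and its targets are known for the difference between fetal and adult stem cells. KAT6A and KAT6B acetylate histone H3, and KAT6A is required for the formation of blood stem cells.

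The study asked what happens when the acetyltransferase activity of either protein, or of both, is lost by a single amino acid change. At embryonic day 9.5 (E9.5), 24 whole embryos were sequenced, 4 each of 6 genotypes. These were wild type (WT), *Kat6a-/-* (labelled cfd/cfd), *Kat6b-/-* (labelled dec/dec), *Kat6a E/E* (homozygous for G656E), *Kat6b E/E* (homozygous for G577E) and a double mutant homozygous for both changes. At E14.5, 16 samples of fetal liver were sequenced, 4 for each of WT, both single point mutants and the double mutant. The study describes these as LSK cells, which are lineage-negative, SCA-1-positive, c-KIT-positive blood progenitors. The methods place the point mutant mice on a C57BL/6J and the null mice on a C57BL/6 background, and the alleles were carried in the germline, so that every cell of an embryo had them. No pooling of animals is described. Embryos came from 26 litters, 17 at E9.5 and 9 at E14.5. In LSK samples, 3 of the 4 WT livers shared 1 litter, and 3 of the 4 double mutants shared another. The labels and the methods differ in the kit and amount of RNA and in the sequencer. The labels call the E14.5 samples fetal liver, with the LSK sort named in their protocol. The RNA isolation methods of the study name no such sort, although its results describe LSK cells.

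Levels are given in CPM, which scales the count of a gene to the total of its library, adjusted by the trimmed mean of M-values (TMM), with the mean ± SD of the 4 libraries of a genotype. Read pairs counted per library reached from 8401990 to 23339359 at E9.5 and from 12270376 to 59216547 in LSK samples, and the lowest count of any of the 7 genes in any library was 79, for *Lin28a*. LSK libraries held *Kit* at 339 to 535 CPM against 31.8 to 48.8 at E9.5, and the SCA-1 gene *Ly6a* at 0.904 to 9.96 CPM against at most 0.410. They also held the hepatoblast genes *Afp* and *Alb* at 14.3 to 97.8 and 14.2 to 97.1 CPM, and *Sox2* was at 0. The targeted genes could not check the labels. *Kat6a* was at 179 ± 8.91 CPM in WT and 170 ± 5.78 in *Kat6a-/-* embryos, and *Kat6b* was at 41.1 ± 2.57 in WT and 55.3 ± 2.52 in *Kat6b-/-* embryos. The female-specific transcript *Xist* was above 100 CPM in 3 E9.5 libraries (*Kat6a-/-* replicate 2 and *Kat6b-/-* replicates 2 and 3), although the study describes these embryos as male. It was also above 100 CPM in 5 LSK libraries, which were not left out as a set in any fit. In bulk samples such as these, fewer cells of a type and less RNA per cell cannot be told apart. P-values were adjusted in limma by the method of Benjamini and Hochberg across every gene tested in a comparison (FDR), and a gene was called at an FDR under 0.05. Between WT LSK samples and WT embryos, 11 of 13 LSK markers were called higher and 2 lower (*Mecom* and *Meis1*). Of 10 hepatoblast markers, 2 were called higher (*Alb* and *Trf*) and 3 lower (*Dlk1*, *Rbp4* and *Fgb*). Of 8 granulocyte and mast cell markers, 7 were called higher.

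What the 7 messages share in sequence is the let-7 match. The let-7 family is shown by let-7a, with the seed that pairs with targets in capitals, and 1 site of each gene follows, each the first in its 3′ UTR, with the 7 bases CTACCTC that pair with the seed in capitals.
let-7a: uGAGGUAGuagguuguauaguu
*Lin28a*: gcacagcctgttgaaCTACCTCatttttgc
*Lin28b*: acccgggcgggaagtCTACCTCatgcaagc
*Igf2bp1*: gctgtgcgaagtaaaCTACCTCaaggtgtg
*Igf2bp2*: acacacaaataaaagCTACCTCaggtgttt
*Igf2bp3*: tgcatttttactcaaCTACCTCaggtattc
*Hmga2*: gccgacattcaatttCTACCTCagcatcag
*Arid3a*: aaggcaagtttctttCTACCTCaggtcttt

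The miRNA sequence is from RefSeq, where 9 mature mouse miRNAs carry the seed GAGGUAG. The sites are sense strand sequence of GRCm39, the build of the counts, within the longest 3′ UTR that GENCODE annotates for each gene. They lie at chr4:133732493-133732522 (minus strand) in *Lin28a*, chr10:45257111-45257140 (minus) in *Lin28b*, chr11:95852597-95852626 (minus) in *Igf2bp1*, chr16:21878216-21878245 (minus) in *Igf2bp2*, chr6:49063714-49063743 (minus) in *Igf2bp3*, chr10:120200122-120200151 (minus) in *Hmga2* and chr10:79789729-79789758 (plus) in *Arid3a*. Searched on the sense strand only, CTACCTC occurred 4 times each in the 3′ UTRs of *Lin28b* (4515 bases), *Igf2bp1* (6337 bases) and *Hmga2* (3021 bases). It occurred 2 times each in *Lin28a* (2775 bases) and *Arid3a* (3082 bases), and 1 time each in *Igf2bp2* (1784 bases) and *Igf2bp3* (2132 bases). All 7 genes thus held the motif, against 2496 of 20973 3′ UTRs of all genes (11.901%). Length matters for this share. Among 3′ UTRs of a length within 25% of that of the gene, 12.079% held the motif for *Igf2bp2*, 24.407% for *Lin28b* and 31.64% for *Igf2bp1*. Messages of the IGF2BP proteins, HMGA2 and the LIN28 proteins were known let-7 targets when the genes were picked. Setting them beside all genes is therefore not a test of enrichment. A match is a string of letters and not a measured site. The counts do not hold the mature miRNAs.

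All 7 genes were expressed in both tissues, and 6 of them were lower in WT LSK samples than in WT E9.5 embryos. Per length, as CPM for each kilobase of exon (RPKM), the order of median levels at E9.5 was *Hmga2* (243), *Lin28a* (123), *Igf2bp2* (118), *Igf2bp3* (92.0), *Igf2bp1* (67.7), *Lin28b* (37.3) and *Arid3a* (33.3). In LSK samples it was *Hmga2* (123), *Igf2bp3* (39.9), *Arid3a* (37.8), *Igf2bp2* (22.2), *Lin28b* (16.9), *Igf2bp1* (15.8) and *Lin28a* (1.65). *Hmga2* led in both tissues, and *Lin28a* moved from the second place to the last.

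**Figure D1:**
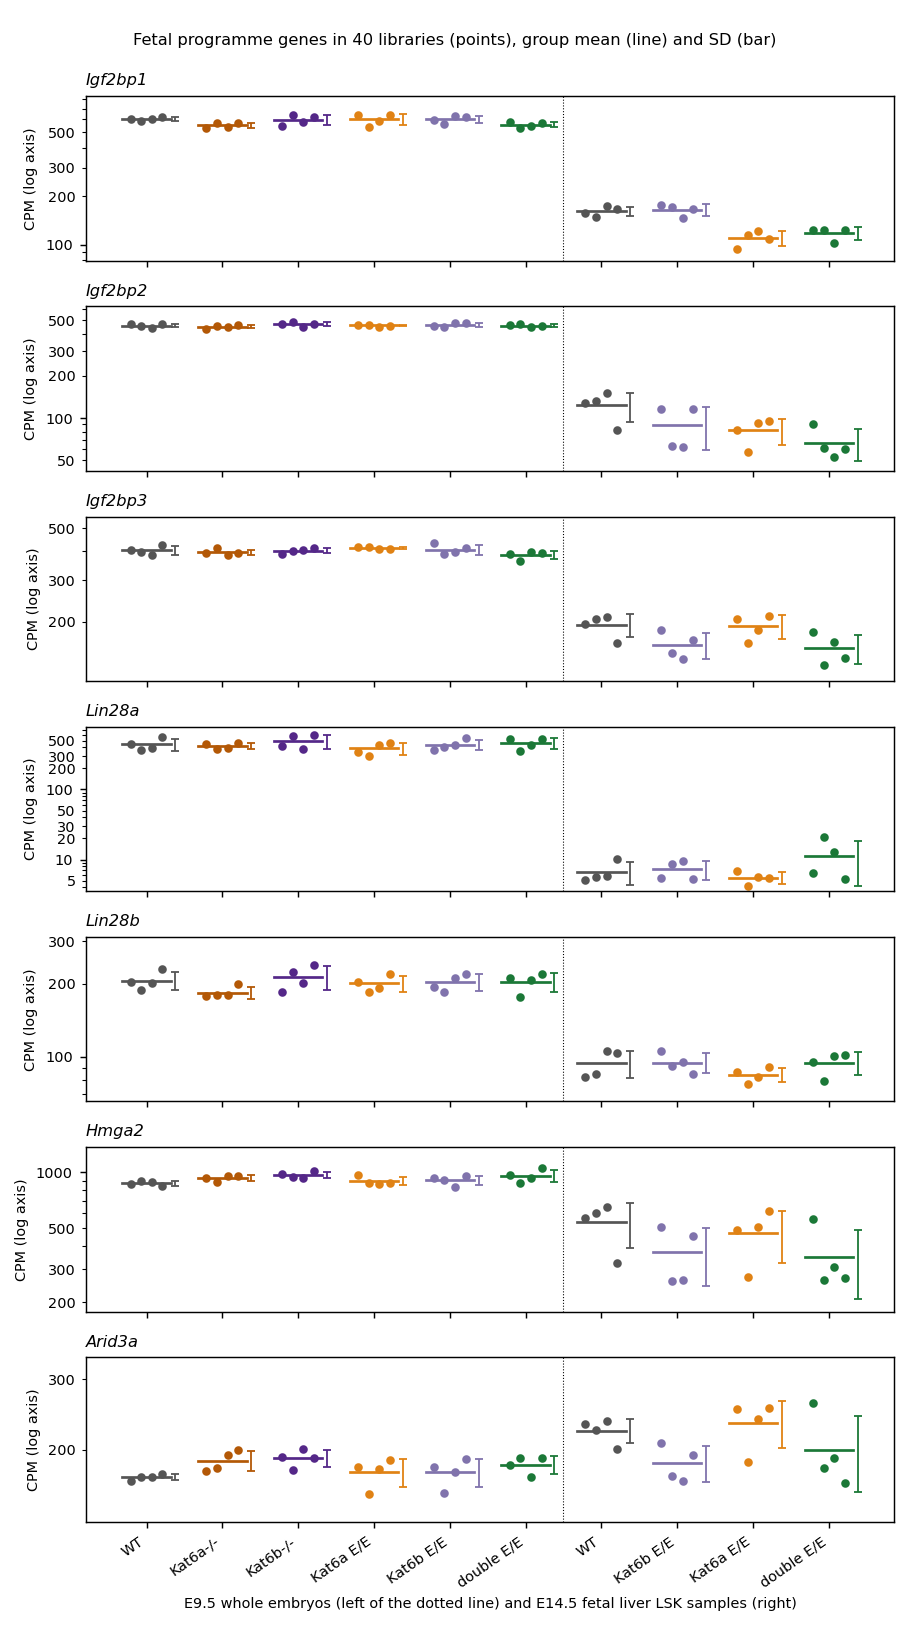
Level of each of the 7 genes in every library (CPM, log axis) by tissue and genotype, with points for libraries, lines for the mean of the 4 libraries of a group and bars for its SD. For 6 of the genes every LSK library lies below every E9.5 library, with *Lin28a* showing the widest gap (302 to 604 CPM at E9.5 and 4.14 to 20.9 in LSK samples), while *Arid3a* overlaps between the tissues. Between the WT groups alone, 77.1% of all genes were apart (43.3% lower in LSK samples), and the share over all libraries was not computed.

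*Lin28a*, the family member of early embryos and pluripotent cells, stood at 388 to 493 CPM in the genotype means at E9.5 and at 5.06, 5.71, 5.75 and 10.2 CPM in the 4 WT LSK samples. It fell by 5.88 on the log2 scale from WT embryos to WT LSK samples (95% confidence interval -6.64 to -5.12, FDR = 7.11e-16). *Lin28b*, the family member of fetal blood cells, was at 203, 189, 202 and 230 CPM in WT embryos and at 82.2, 84.6, 105 and 103 CPM in WT LSK samples. The groups did not overlap, and *Lin28b* fell by 1.12 on the log2 scale (-1.32 to -0.92, FDR = 8.83e-13). LSK samples thus held far more *Lin28b* than *Lin28a*, also per length.

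The IGF2BP proteins bind messenger RNAs, many of them at N6-methyladenosine, and protect them from decay. *Igf2bp1* was at 605, 589, 600 and 623 CPM in WT embryos and at 156, 149, 173 and 167 CPM in WT LSK samples, a fall of 1.86 on the log2 scale, that is a log2 fold change of -1.86 (-2.01 to -1.72, FDR = 7.81e-23). *Igf2bp2* fell by 2.02 (-2.31 to -1.73, FDR = 1.05e-14) and *Igf2bp3* fell by 1.12 (-1.29 to -0.96, FDR = 6.65e-15). *Hmga2*, a chromatin protein that binds AT-rich DNA, was at 866, 893, 880 and 839 CPM in WT embryos and at 570, 606, 649 and 324 CPM in WT LSK samples, and fell by 0.86 (-1.28 to -0.44, FDR = 0.000376). *Arid3a*, a DNA-binding protein of blood and B cell development, was at 167, 171, 171 and 174 CPM in WT embryos and at 233, 224, 236 and 202 CPM in WT LSK samples. It was the member that rose, by 0.34 on the log2 scale (0.14 to 0.54, FDR = 0.00279). All 7 genes were called, 6 lower and 1 higher, where 74.9% of the 15123 genes tested were called (42.6% lower and 32.3% higher). No WT group of the 7 genes overlapped between tissues, which held for 77.1% of all genes, so being called or apart was the rule between these tissues. Tissue, stage, sorting, RNA input and litter cannot be told apart in this comparison.

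In E9.5 embryos none of the 7 genes was called in any of 8 comparisons of genotypes. Apart from *Lin28a*, the level of each varied little across the 24 embryos. The ratio of highest to lowest went from 1.12 for *Igf2bp2* and 1.19 for *Igf2bp3* to 1.36 for *Lin28b*, and was 2.00 for *Lin28a*. Between *Kat6a-/-* and WT, where 2.64% of 14183 genes were called, 3 of the 7 reached an unadjusted p under 0.05, as did 16.9% of all genes, and the smallest FDR was 0.0578. That was *Lin28b*, at 178, 179, 180 and 199 CPM in *Kat6a-/-* embryos (184 ± 10.1, against 206 ± 17.1 in WT), with a log2 fold change of -0.15 (-0.24 to -0.06). The groups overlapped. *Lin28b* was on either side of the threshold by the method used, with an FDR of 0.0494 by edgeR with the surrogate variables, 0.0498 by DESeq2 and 0.378 in limma without surrogate variables. Beside it in the same embryos, 2 of 10 embryo tissue markers fell, *Sox2* by 0.33 (FDR = 0.0151) and *Pax6* by 0.28 (FDR = 0.0430) on the log2 scale, and 1 of 6 macrophage markers, *Mrc1*, rose by 1.06 (FDR = 0.0495). Their part in the *Lin28b* values was not tested.

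*Igf2bp1* was at 532, 569, 540 and 572 CPM in *Kat6a-/-* embryos, all below the 4 WT embryos (log2 fold change -0.11, -0.19 to -0.02, FDR = 0.162). *Arid3a* was at 177, 180, 195 and 200 CPM there, all above WT (0.14, 0.02 to 0.26, FDR = 0.189). Such a separation was shown by 2 of these 7 genes and by 11.8% of all genes in this comparison (5.4% below and 6.36% above WT). In *Kat6b-/-* embryos, where 0.508% of genes were called, *Hmga2* was at 974, 948, 934 and 1013 CPM, above every WT embryo (0.11, 0.03 to 0.19, FDR = 0.221). *Arid3a* was at 192, 178, 202 and 191 CPM, also above (0.12, 0.00 to 0.24, FDR = 0.395), and 6.57% of all genes separated in this way (3.11% above WT).

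In *Kat6a E/E* embryos, where 0.275% of genes were called, *Igf2bp1* was at 641, 540, 584 and 642 CPM on both sides of WT (log2 fold change -0.00, -0.08 to 0.08, FDR = 0.992). In *Kat6b E/E* embryos it was at 590, 561, 632 and 619 CPM, and limma called no gene at all there, with 626 of 14183 at an unadjusted p under 0.05. In the double mutant, where 2.91% of genes were called, *Igf2bp1* was at 575, 532, 543 and 571 CPM, below every WT embryo (-0.13, -0.22 to -0.04, FDR = 0.0855), where 7.18% of all genes were apart, 3.74% of them below. Against *Kat6b E/E*, which adds the *Kat6a* mutation alone, 0.0282% of genes were called and *Igf2bp1* was at -0.11 (-0.20 to -0.02, FDR = 0.289). None of the 7 was called between *Kat6a E/E* and *Kat6a-/-* (1.6% of genes called) or between *Kat6b E/E* and *Kat6b-/-* (0.0353%). The comparisons with WT share the WT embryos. The median log2 fold change of the 7 genes lay between -0.05 and 0.02 in all 8 comparisons.

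**Figure D2:**
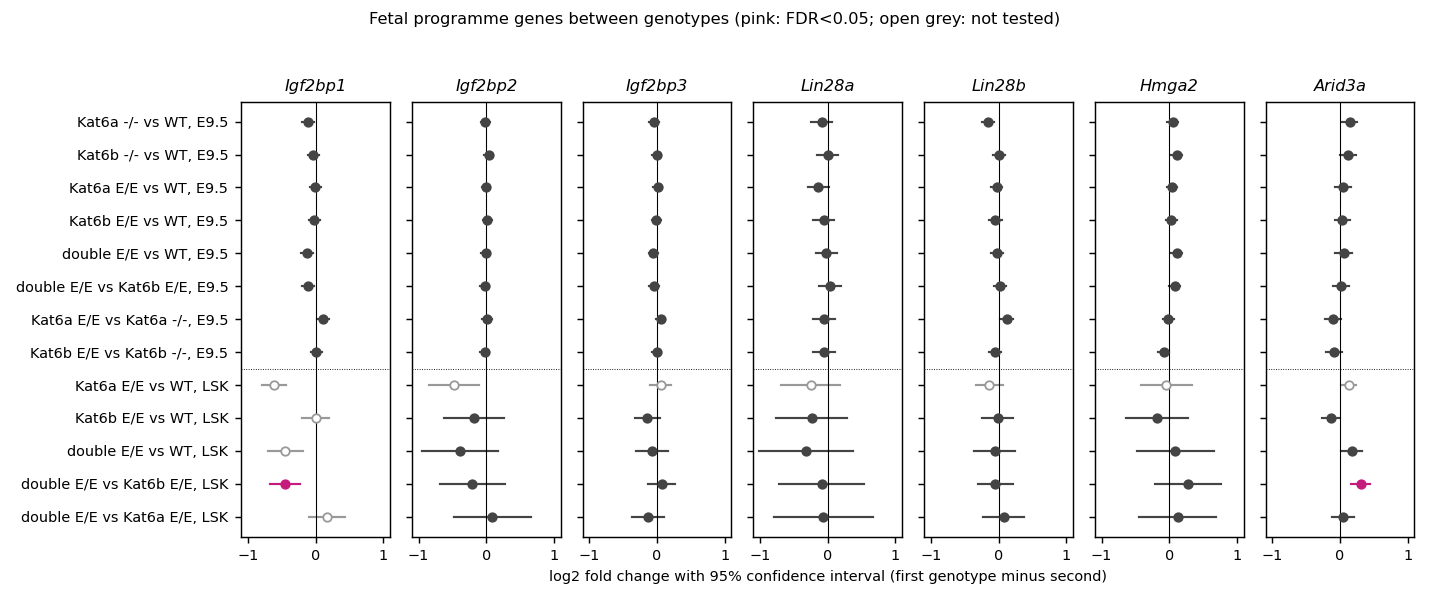
Log2 fold change with its 95% confidence interval for each of the 7 genes in 13 comparisons of genotypes, 8 in E9.5 embryos and 5 in LSK samples. Filled pink points had an FDR under 0.05, filled dark points were tested and not called, and open grey points were not tested because the gene or the contrast had been chosen on those values. No E9.5 point is called, and in LSK samples *Igf2bp1* (-0.45) and *Arid3a* (0.30) are called between the double mutant and *Kat6b E/E*. The *Igf2bp1* values of that contrast had also been seen when the gene was chosen, so its FDR is not independent of that choice.

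In LSK samples, *Igf2bp1* was lower wherever *Kat6a* carried G656E. It was at 156, 149, 173 and 167 CPM in WT (161 ± 10.5), at 176, 171, 146 and 166 in *Kat6b E/E* (165 ± 13.0), at 93.5, 115, 122 and 108 in *Kat6a E/E* (110 ± 12.3) and at 123, 124, 102 and 123 in the double mutant (118 ± 10.8). The 8 libraries with the *Kat6a* mutation reached at most 124 CPM, and the 8 libraries without it held at least 146 CPM. The share of all genes apart in this way was not computed, and the WT and *Kat6a E/E* libraries among them chose the gene. The log2 fold change of *Kat6a E/E* against WT was -0.62 (SE 0.082, -0.79 to -0.44). This value chose the gene and is given as a description, in a comparison in which 1.36% of 13071 genes were called and 4.08% had groups apart (2.23% lower). It lay between -0.66 and -0.55 over the alternative fits and between -0.67 and -0.50 when any 1 library was left out. In the same comparison *Gata2*, a stem and progenitor cell transcription factor (1 of 13 LSK markers), fell by 0.57 (FDR = 0.00353), *Cpa3*, a mast cell protease (1 of 8 granulocyte and mast cell markers), fell by 1.04 (FDR = 0.000582) and *Csf1r*, a macrophage receptor (1 of 8 macrophage markers, whose median was -0.54), rose by 0.41 (FDR = 0.0174). Their part in the *Igf2bp1* values was not tested. The estimates for *Kat6b E/E* (0.00, -0.20 to 0.20) and the double mutant (-0.45, -0.71 to -0.18) against WT share the WT libraries and were likewise not tested. The double mutants lay below all WT samples, as 4.54% of all genes were apart (3.22% lower), and the double mutant stood at 0.17 (-0.10 to 0.44) against *Kat6a E/E*.

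The contrast of the double mutant with *Kat6b E/E* leaves out the WT and *Kat6a E/E* libraries. Its fit still held all LSK libraries, so those entered the surrogate variables, variances and litter correlation behind it. In that fit *Igf2bp1* fell by 0.45 on the log2 scale (SE 0.10, -0.67 to -0.23, -26.7%, FDR = 0.0453), as 1 of 193 genes called (1.48%, with 0.926% lower). It was not called in a fit of only the 8 libraries compared. The values of the 8 libraries had been seen when the gene was chosen, so the FDR is not independent of that choice, and 3 of the 4 double mutants shared a litter that held no *Kat6b E/E* sample. All 4 double mutants lay below all 4 *Kat6b E/E* samples, a separation that 4.96% of genes showed in either direction (2.91% lower). The FDR was close to the threshold. It was over 0.05 in 9 of 15 alternative fits, with log2 fold changes of -0.51 to -0.37 throughout. It was also over 0.05 without *Kat6b E/E* replicate 1 (FDR = 0.111), 2 (0.108) or 4 (0.0685) or double mutant replicate 2 (0.0751), 3 (0.0903) or 4 (0.0778), with log2 fold changes from -0.56 to -0.40 over all 8 omissions.

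Litter and genotype were largely confounded in these samples, and 2 litters held both *Kat6a* states. In litter 753, *Igf2bp1* was at 93.5 CPM in the *Kat6a E/E* sample and at a mean of 160 CPM in 3 WT samples (difference of -0.77 on the log2 scale). In litter 970 it was at 123 CPM in the double mutant and 176 CPM in the *Kat6b E/E* sample (-0.51). The difference in litter 753 comes from libraries on which the gene was chosen, so its direction adds nothing to that choice. The difference in litter 970 comes from a comparison in which the groups did not overlap, so its direction was given by that separation and adds nothing to it. Each rests on 1 mutant sample. Markers of other cells beside the double mutant against *Kat6b E/E* were mostly not called. None of 10 erythroid and none of 10 hepatoblast markers passed, 1 of 8 granulocyte and mast cell markers fell (*Cpa3*, by 1.00, FDR = 0.0195), and 1 of 13 LSK markers rose (*Ptprc*, which encodes CD45, by 0.44, FDR = 0.0444). The summed granulocyte and mast cell markers ranged from 3208 to 4561 CPM in double mutants and from 3776 to 5560 in *Kat6b E/E* samples. The summed erythroid markers differed more, with a median of 9210 CPM in double mutants (1513 to 15392) and 5131 CPM in *Kat6b E/E* samples (2253 to 5854). After the surrogate variables the median log2 fold change of the erythroid markers was -0.56, opposite in direction to these sums. With the summed erythroid markers as a covariate *Igf2bp1* was at -0.47 (FDR = 0.0194), and with the summed hepatoblast markers at -0.47 (FDR = 0.752), a fit in which no gene was called.

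**Figure D3:**
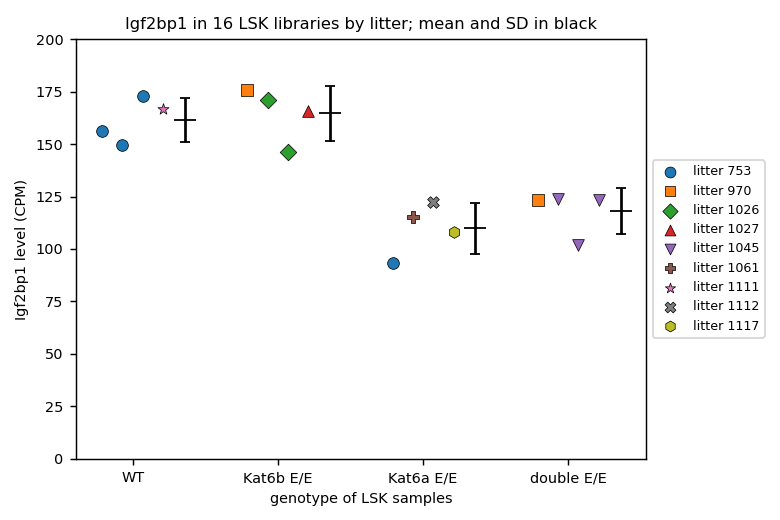
*Igf2bp1* level (CPM) in each of the 16 LSK libraries by genotype, marked by litter, with the mean and SD of the 4 libraries of a genotype. The 8 libraries with the *Kat6a* mutation lie at 93.5 to 124 CPM and the 8 libraries without it at 146 to 176 CPM. The share of all genes apart in this way was not computed, and the WT and *Kat6a E/E* libraries chose the gene.

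*Igf2bp2* was more variable. It was at 127, 132, 151 and 82.1 CPM in WT and at 117, 63.6, 62.4 and 116 CPM in *Kat6b E/E*. The *Kat6a E/E* samples held 82.2, 57.1, 92.0 and 95.6 CPM and the double mutants 90.7, 61.3, 52.3 and 60.2 CPM. The genotypes overlapped. The log2 fold change of *Kat6a E/E* against WT was -0.47 (-0.84 to -0.10, a description), and between the double mutant and *Kat6b E/E* it was -0.20 (-0.69 to 0.28, FDR = 0.630). The interval of the latter includes both no change and the value in *Kat6a E/E*. In litter 753 the *Kat6a E/E* sample held 82.2 CPM and the WT samples a mean of 137.

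*Igf2bp3* was at means of 193 ± 21.8 CPM in WT, 159 ± 20.2 in *Kat6b E/E*, 191 ± 22.3 in *Kat6a E/E* and 154 ± 22.2 in the double mutant. Its log2 fold change was 0.07 (-0.13 to 0.27) between the double mutant and *Kat6b E/E*, an interval that does not hold the -0.45 of *Igf2bp1*. Of its exonic bases, 20.7% overlap genes on the other strand, whose reads unstranded libraries do not separate. *Lin28b*, upstream of let-7, was at 93.8 ± 12.1 CPM in WT, 94.4 ± 8.96 in *Kat6b E/E*, 84.1 ± 5.94 in *Kat6a E/E* and 94.1 ± 10.4 in the double mutant, and at -0.04 (-0.30 to 0.21) between the double mutant and *Kat6b E/E*. *Lin28a*, at 4.14 to 20.9 CPM, gave a wide interval for that difference (-0.09, -0.71 to 0.54).

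*Hmga2* was at 537 ± 146 CPM in WT, 371 ± 128 in *Kat6b E/E*, 471 ± 144 in *Kat6a E/E* and 349 ± 140 in the double mutant, with SDs that span the differences. The double mutant was at 0.27 (-0.21 to 0.76, FDR = 0.508) against *Kat6b E/E* after the surrogate variables, although its raw mean was the lower of the pair. *Arid3a* was at 208, 172, 167 and 195 CPM in *Kat6b E/E* and 262, 181, 191 and 165 in the double mutant. These groups overlapped, yet the fit with 4 surrogate variables called *Arid3a* 0.30 higher (0.17 to 0.44, FDR = 0.0383), where 0.551% of genes were called higher. The call was lost in 10 of 15 alternative fits (log2 fold changes of 0.11 to 0.35) and without any 1 of 7 of the 8 libraries, with values down to 0.06. Against WT the double mutant was at 0.17 for *Arid3a* (FDR = 0.693), and this value turned negative in some fits.

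In the other LSK comparisons none of the members tested was called. These were 6 members in *Kat6b E/E* against WT (0 genes called, 364 of 13071 at an unadjusted p under 0.05), 6 in the double mutant against WT (0 and 896) and 6 in the double mutant against *Kat6a E/E* (0 and 197), all by limma.

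Much of the spread of *Hmga2*, *Igf2bp3*, *Arid3a* and *Igf2bp2* ran across genotypes and along litters. *Hmga2* was at 261 to 324 CPM in 4 litters (1026, 1061, 1045 and 1111) and at 454 to 649 CPM in the others, whatever the genotype. Over the 16 LSK libraries, which share litters and genotypes, the correlation of log2 CPM with the summed level of 10 erythroid markers was -0.899 for *Hmga2*, -0.918 for *Igf2bp3*, -0.888 for *Arid3a* and -0.737 for *Igf2bp2*. It was 0.00314 for *Igf2bp1*, -0.0691 for *Lin28b* and 0.55 for *Lin28a*. With the summed LSK markers it was 0.977 for *Hmga2*, 0.931 for *Igf2bp3* and -0.00762 for *Igf2bp1*. The summed erythroid markers ranged from 1231 to 4453 CPM in WT, 2253 to 5854 in *Kat6b E/E*, 725 to 7017 in *Kat6a E/E* and 1513 to 15392 in the double mutant. The part of these cells in the values of the 4 genes was not tested.

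**Figure D4:**
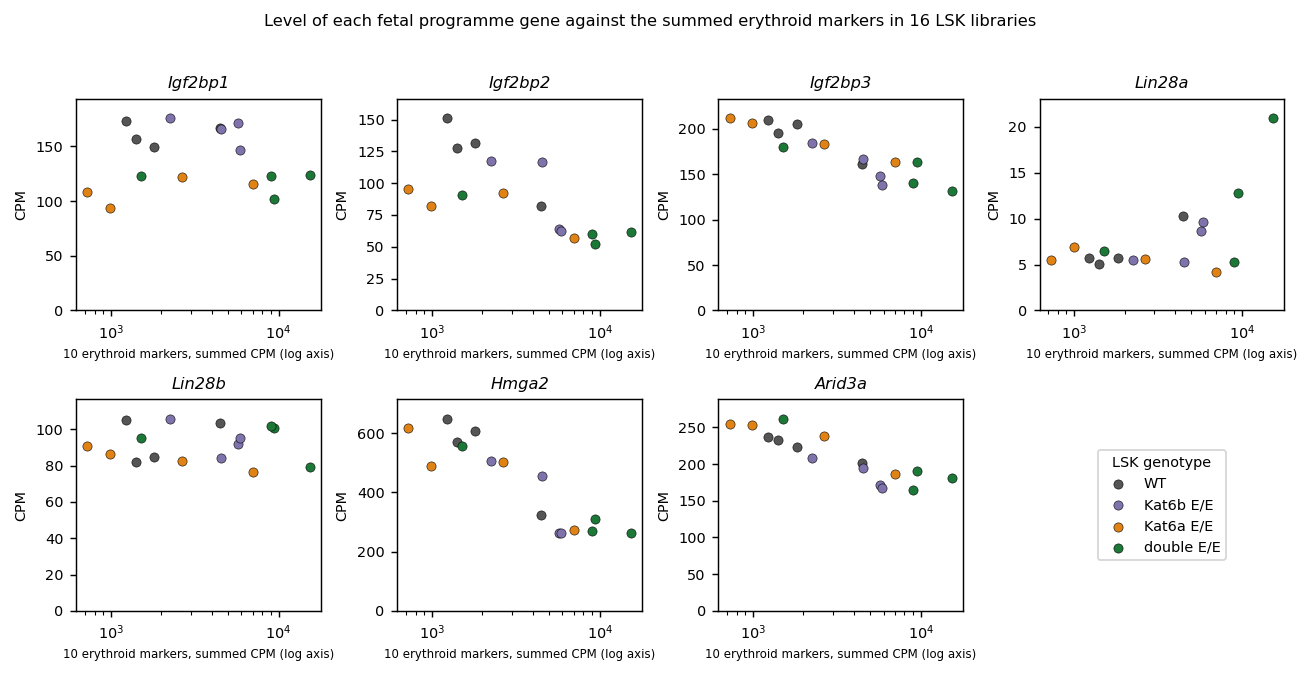
Level of each of the 7 genes (CPM) against the summed level of 10 erythroid markers (CPM) in the 16 LSK libraries, by genotype, with the markers on a log axis. *Hmga2*, *Igf2bp3*, *Arid3a* and *Igf2bp2* tend to be lower in libraries with more erythroid RNA, while *Igf2bp1* shows no such trend. The libraries without the *Kat6a* mutation reach from 1231 to 5854 CPM of these markers, and beyond that range on either side every library is a *Kat6a* mutant.

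The effect of the *Kat6a* mutation on the *Kat6b E/E* background was set against the same contrast in embryos by an interaction term over all 40 libraries, of which 0.0331% of genes (5) were called and 1516 had an unadjusted p under 0.05 in limma. None of the 7 genes was called. For *Igf2bp1* the difference between tissues was -0.36 on the log2 scale (-0.58 to -0.14, FDR = 0.205), so a larger effect in LSK samples than in embryos did not pass the threshold. The LSK values in this term had been seen when *Igf2bp1* was chosen, so neither the interval nor the FDR is independent of that choice. Put side by side, the mean of *Igf2bp1* in double mutants was 118 CPM against 165 in *Kat6b E/E* LSK samples, and 555 against 601 in embryos.

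Genes of the same pathways were seldom called between genotypes. The genes named here are all that were called. Of 22 RNA-binding partners and N6-methyladenosine factors, *Alkbh5*, a demethylase, rose by 0.22 on the log2 scale in double mutant embryos (FDR = 0.0242). Of 20 genes of let-7 processing and turnover, *Trim71*, a ubiquitin ligase of early embryos and itself a let-7 target, fell by 0.26 in *Kat6a-/-* embryos (FDR = 0.0174) and by 0.21 in double mutant embryos (FDR = 0.0497). Of 21 let-7 targets, *Mycn* fell by 0.28 in *Kat6a E/E* embryos (FDR = 0.0198), and *Myc* fell by 0.37 in *Kat6a E/E* against *Kat6a-/-* embryos (FDR = 0.0332). Of 9 genes that share the HMG or ARID3 name with HMGA2 and ARID3A, *Hmgb1* rose by 0.31 in *Kat6b-/-* (FDR = 0.00441) and by 0.26 in double mutant embryos (FDR = 0.00721). *Hmgb2* rose by 0.25 in double mutant embryos (FDR = 0.0174), while *Hmga1* and *Arid3b* were not called between genotypes. None of 11 other fetal and growth genes was called between genotypes.

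In LSK samples the 1 call of these lists between the double mutant and *Kat6b E/E* was *Cdc34*, a ubiquitin-conjugating enzyme and let-7 target, which fell by 0.40 (FDR = 0.0401). The median log2 fold change of the let-7 targets was -0.08 there, beside -0.04 over all genes.

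Between WT LSK samples and WT embryos, where 42.6% of all genes were called lower and 32.3% higher, 12 of 21 let-7 targets were lower and 5 higher, with a median of -0.40 beside -0.10 over all genes. The calls of this list and of those that follow are to be read against these shares. *Arid3b* (-2.16) and *Hic2* (-1.48) fell with most of the 7 genes, and *Myc* (2.52) and *Cdk6* (2.97), which drive the cell cycle, rose. Of the let-7 processing genes 11 were lower and 3 higher (median -0.24). *Drosha* (-0.98), the nuclear nuclease of miRNA processing, fell, as did *Trim71* (-9.43), which was at a median of 0.114 CPM in LSK samples. *Tut7* (1.08), a terminal uridylyltransferase, rose. RNA-binding partners had 8 lower and 2 higher of 22, with a median of -0.10. The genes sharing the HMG or ARID3 name had 5 lower and 2 higher, and the other fetal and growth genes had 8 lower and 3 higher (median -2.74), with the imprinted growth factor gene *Igf2* at -6.32 and *Bcl11a*, which encodes a repressor of fetal globin, at 5.79.

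The genes most like each member over the 16 LSK libraries were found by the correlation of log2 CPM, given as a description. For *Igf2bp1* these were *Trib2* (0.871), *Gata2* (0.84) and *Apoe* (0.836). Within genotypes the correlation with *Igf2bp1* was 0.418 for *Trib2*, 0.478 for *Gata2* and 0.0285 for *Apoe*, so much of the likeness lay in the difference between genotypes. *Hmga2* was most like *Slc22a3* (0.985), *Sox4* (0.979) and *Slc39a10* (0.968). For *Igf2bp2* they were *Mmrn1* (0.957), *Fscn1* (0.942) and *Dlk1* (0.94), for *Igf2bp3* *Pik3cg* (0.972), *Eml4* (0.968) and *Vipr2* (0.959), and for *Arid3a* *Arhgef18* (0.962), *Parp8* (0.959) and *Dock8* (0.958). The nearest to *Lin28b* reached 0.862 (*Atp2a2*) and that to *Lin28a* 0.902 (*Tmbim6*). Over the 24 embryos, *Lin28b* was most like *Ipo5* (0.918), *Epb41l5* (0.897) and *Btaf1* (0.888), *Lin28a* was most like *Wdr77* (0.868) and *Igf2bp1* was most like *Sf3b3* (0.861). *Hmga2* was most like *Kitl* (0.8), *Igf2bp3* *Arhgap35* (0.74), *Arid3a* *Gramd1b* (0.762) and *Igf2bp2* *Cadm1* (0.73). Among the members themselves the correlation was 0.754 between *Lin28b* and *Igf2bp1* in embryos, and 0.504 between *Igf2bp1* and *Igf2bp2* in LSK samples, where *Hmga2* reached 0.923 with *Igf2bp3*. The libraries behind each of these values share litters and genotypes.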

How the data were processed

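The data were counts per gene of 40 bulk libraries. The deposited counts give whole read pairs per RefSeq gene, which the authors obtained by aligning to mm39 with Rsubread and counting with featureCounts, from a kit that does not keep strand. No other columns of values were present.

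The files hold 26411 genes, of which 26359 matched a gene table for names and types and 52 did not. As in the study, the fit was limited to protein-coding genes off the Y chromosome, filtered with filterByExpr, scaled by TMM and fitted with voomLmFit, with 4 surrogate variables from wsva, litter as a random block (correlation 0.107 at E9.5, 0.331 in LSK samples) and robust moderation. This left 14183 genes at E9.5 and 13071 in LSK samples. A fit of all 40 libraries (15123 genes, litter correlation 0.197, no surrogate variables) served comparisons between tissues. Software was limma 3.58.1, edgeR 4.0.16 and DESeq2 1.42.0 in R 4.3.3. Log2 CPM for correlations had a prior count of 2. An exact permutation test of *Igf2bp1* between the double mutant and *Kat6b E/E* is not reported, since its p was at its smallest possible value in every setting and the values had been seen. The labels number the samples of a group, and each is a separate embryo, so p-values measure the spread between embryos, which litters share in part. The highest correlation between any 2 libraries was 0.9941. The fits were tested on simulated data.

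The members and lists were chosen with earlier results of these data known. Named were the 7 members, *Kat6a* and *Kat6b*, up to 4 called genes of each list (all those called between genotypes, and some of those called between tissues, after their values were seen) and the genes most correlated with each member, 3 found for each. The rule was to name genes by smallest p, but *Tut7* and *Bcl11a* were not among the 4 with the smallest p of their lists. Gene positions and UTRs came from GENCODE on GRCm39, and miRNA sequences from a RefSeq table. Reads of paralogs and overlapping genes were not resolved. Of 75-base stretches of *Hmga2* exons, 3.2% also occur elsewhere, among them in the pseudogene *Hmga2-ps1*, and 6.27% of *Lin28a* and 5.16% of *Hmga2* exonic bases overlap genes of the other strand.

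Alternatives were 0, 2 or 6 surrogate variables, no litter block, edgeR quasi-likelihood tests, DESeq2, DESeq2 size factors, no filter, all gene types, the replicate number as a block, a fit of only the 8 libraries compared, and omission of each library. Added after seeing the data were omission of the 3 embryos with *Xist*, litter as a fixed term, and summed erythroid or hepatoblast markers as covariates.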

Additional observations from a re-analysis of the deposited data

Results flagged for a closer look

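In 5 of 70 groups of 4 libraries checked (10 genotype groups for each of the 7 genes), the highest or lowest library stood apart from the other 3 by more than the 95% limit for a single outlier. Chance alone marks about 1 in 20 groups. *Igf2bp1* was at 102 CPM in double mutant LSK replicate 3, below 123, 124 and 123 in the others. *Lin28a* was at 10.2 CPM in WT LSK replicate 4, the deepest library, against 5.06 to 5.75. *Lin28b* was at 199 CPM in *Kat6a-/-* embryo replicate 4, against 178 to 180. *Hmga2* was at 962 CPM in *Kat6a E/E* embryo replicate 1, and at 557 CPM in double mutant LSK replicate 1, against 263 to 310 in the other double mutants of the latter group, which share a litter.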

How the results depend on the processing

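Of 611 values recomputed for 29 results, 530 were labelled the same, 32 lost and 11 gained significance, 33 moved and 5 reversed. For a tested value, the same means an unchanged direction and side of the threshold. For a number of genes called it means an equal or near number, and for an untested value a shift smaller than the SD within groups. The 530 also hold the permutation test that is not reported, whose p was at its smallest possible value in every setting. Causes of the changes were not tested. *Igf2bp1* in the double mutant against *Kat6b E/E* (-0.45, FDR = 0.0453) was no longer called with 0 (-0.47, FDR = 0.433) or 6 surrogate variables (-0.45, 0.0743), by edgeR without surrogate variables or litter (-0.47, 0.0591), without a filter (-0.45, 0.0639), with all gene types (-0.45, 0.0673), with the replicate block (-0.37, 0.221), with hepatoblast markers as covariate (-0.47, 0.752), with litter fixed (-0.51, 0.716) or with only the 8 libraries compared (-0.46, 0.731). DESeq2 (-0.41, 0.00422) and edgeR with surrogate variables (-0.42, 0.0265) called it. Leaving out 1 library gave -0.56 to -0.40.

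Of the 7 genes, the 2 called in LSK samples were 0 with 0 or 6 surrogate variables, edgeR without them, no filter, all gene types, the replicate block, hepatoblast markers or only the 8 libraries, 1 with erythroid markers, and 0 to 3 without 1 library. With litter as a fixed term, fitted for the double mutant against *Kat6b E/E*, neither was called (*Arid3a* 0.34, FDR = 0.765). The 0 called at E9.5 were 3 with 6 surrogate variables, 1 each by edgeR with surrogate variables, DESeq2, all gene types and only the 8 libraries, and 0 to 1 without 1 library. The 0 called for the difference between tissues were 1 (*Igf2bp1*, -0.37, FDR = 0.0493) with the replicate block and 0 to 1 without 1 library, the 1 without double mutant LSK replicate 1. All 7 were called between tissues in every setting. *Arid3a* in the double mutant against WT LSK (0.17) reversed with 0 surrogate variables (-0.10), by edgeR without them (-0.16), with hepatoblast markers (-0.074), with only the 8 libraries (-0.11) and ranged from -0.070 to 0.19 when 1 library was left out, negative without double mutant replicate 1. Over all genes, the 193 calls of the double mutant against *Kat6b E/E* ranged from 0 (0 surrogate variables, replicate block, hepatoblast markers, litter fixed, only the 8 libraries) to 1865 (DESeq2), with 366 for 2 surrogate variables, 598 without the litter block, 12 and 1333 by edgeR without and with surrogate variables, 41 without a filter, 80 with all gene types, and 0 to 2929 without 1 library, the last without double mutant replicate 1. Same-numbered libraries did not deviate together (median correlation 0.0458 over 60 pairs at E9.5 and 0.0053 over 24 pairs in LSK samples), so the numbers do not pair them. Without the 3 embryos with *Xist* no member was called.

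With 79 to 605 counts in LSK libraries, *Lin28a* was the member that depth limited most. A gene that was not called is not shown to be unchanged.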
